A study of Mus musculus with 12 samples.

Results

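The insulin signalling and glucose transporter genes described here are Insr, Igf1r, Irs1, Irs2, Pik3r1, Akt1, Akt2, Grb10, Slc2a1 and Slc2a4. They were chosen by symbol for their known roles, and each symbol matched 1 of the 55487 genes in the table. Of these 10 genes, 8 reached 1 TPM, a length-corrected share of the transcripts in a library, in at least 2 libraries and were tested. Slc2a4 and Grb10 did not, and are described by their values. The libraries came from 3T3-L1 cells, a clonal mouse fibroblast line that turns into adipocyte-like cells after hormonal induction. Every line had been infected with a lentivirus that drives a short hairpin RNA from a U6 promoter and had been selected with puromycin. The hairpin was either a scrambled control (shScram) or aimed at Fto (shFTO), the gene of an RNA demethylase. Cells of each line were taken as confluent preadipocytes before induction (Pre), at mitotic clonal expansion under MDI induction medium (MCE), or after further culture in insulin medium as differentiated cells (Diff), with 2 libraries in each of these 6 groups. MDI medium contains IBMX, dexamethasone and insulin, so the MCE and Diff groups of both lines had been exposed to insulin while the Pre groups had not. Which Fto hairpin was sequenced, and whether a line was a pool or a clone, is not given in the sources used here.

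Insulin binds the insulin receptor, which phosphorylates insulin receptor substrates. These recruit phosphoinositide 3-kinase through its p85 regulatory subunit, the lipid product of that kinase activates Akt, and Akt moves the glucose transporter GLUT4 to the cell surface in fat and muscle. GLUT1 serves basal glucose uptake in most cells, and the rise of GLUT4 is a classic late event of fat cell differentiation.

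With all 12 libraries fitted, knockdown differences passed the threshold in 7 of the 8 tested genes in at least 1 stage. Insr, the insulin receptor gene, was the exception. Akt1 and Akt2 passed at Pre alone, and not after correction for GC content. Of all tested genes, 28.2%, 17.8% and 21.2% were called at Pre, MCE and Diff. The share of all genes called in at least 1 stage was not counted, so the 7 cannot be set against it. Slc2a1, which encodes GLUT1, was 2.79, 2.72 and 2.22 times as abundant in shFTO as in shScram cells at Pre, MCE and Diff. Its shScram libraries at Pre were uneven, at 35.7 and 77.1 TPM. Pik3r1, which encodes p85 alpha, stood at 48.5% of its shScram level at MCE and 44.7% at Diff. Irs2 was 2.27 times as abundant in shFTO cells at MCE, and Irs1 and Igf1r stood at 63.2% and 62.7% of their shScram levels at Diff. The calls of Irs2, Irs1 and Igf1r each depended on every library of their stage. Slc2a4, which encodes GLUT4, was at about 1 TPM only in differentiated shScram cells.

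Several facts of the libraries bear on these values. Fto ranged from 52.7 to 73.5 TPM in the 6 shScram libraries and from 5.51 to 7.47 TPM in the 6 shFTO libraries. Replicate 1 of shScram at Pre stood apart: its correlation with replicate 2 over tested genes was 0.939, against 0.990 to 0.993 in the other groups. It also had the highest share of mitochondrial transcripts, 14.5% against 4.58% to 9.17% in the others. The difference between these replicates rose with the GC content of the transcript (Spearman's rho = 0.688 across 15928 genes, which are not independent), whereas rho lay between -0.356 and 0.204 in the other groups. The treatment entry of replicate 1 of shScram at Diff names the knockdown although its title says shScram, and the title was followed. Fto in this library was at 73.5 TPM, beside 70.8 TPM in replicate 2, so its Fto level was that of the control line. It and replicate 1 of shScram at Pre are called the 2 doubted libraries, the Diff library for its entry alone. Values past the threshold that moved by over 1.5 times or lost their call without either are also given without it. The summed level of 10 adipocyte markers was 1576 and 1565 TPM in differentiated shScram cells, while those with shFTO held 453.7 and 413.7 TPM, although both groups carry the description of mature adipocytes. Lep was at 0 in all but 1 library. Adipoq, an adipocyte hormone, was at 77.2 and 72.4 TPM in differentiated shScram cells, and the shFTO libraries of that stage held 6.05 and 3.66 TPM. Of markers of other cells, 8 of skeletal muscle summed to 452.3 and 402.0 TPM in shFTO cells at Diff, the shScram sums being 33.8 and 48.9 TPM, nearly all of it Tnnt3, with Myod1 and Ckm at 0 in these groups. The sum of 6 macrophage markers was 22.3 to 49.6 TPM in shFTO and 5.27 to 15.6 TPM in shScram libraries. In every library most of it was Cd14, Adgre1 was at 0, and Cd68 lay between 0.457 and 3.04 TPM. The sum of 8 markers of preadipocytes or fibroblasts was 5816 and 5331 TPM in shFTO and 4032 and 3643 TPM in shScram cells at MCE. At Diff it was 9072 and 9493 TPM in shFTO and 7038 and 6667 TPM in shScram cells. At Pre the lines overlapped, with 7648 and 7723 TPM in shFTO and 4927 and 8973 TPM in shScram cells. Not every marker followed the sum, and Col1a2 was lower in shFTO cells at MCE and Diff. Over all libraries, 5 endothelial markers summed to 0.129 to 1.93 TPM. In such bulk samples, fewer cells of a type and less RNA per cell cannot be told apart.

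The order of the levels was led by Akt1 in every group, from a mean of 204.0 TPM in shScram cells at Pre to 400.6 TPM in shFTO cells at Pre. In shScram cells at MCE and Diff, Pik3r1 came next, at 119.1 and 173.6 TPM. In shFTO cells the second place was held by Slc2a1 at all stages, at 157.5, 187.7 and 137.7 TPM. Among the tested genes, neighbours whose library values overlapped were Akt2 with Slc2a1 and Slc2a1 with Pik3r1 in shScram cells at Pre, Slc2a1 with Akt2 in shScram cells at Diff, and Akt2 with Pik3r1 in shFTO cells at Diff. At Pre, Insr overlapped with Irs1 and Igf1r with Irs2 in shScram cells, and Irs2 with Igf1r and Igf1r with Insr in shFTO cells. At Diff, Irs2 with Insr and Insr with Igf1r overlapped in shFTO cells. Irs1 was the lowest of the 8 tested genes in both lines at MCE and at Diff, and Slc2a4 and Grb10 were below all of these in every group.

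**Figure D1:**
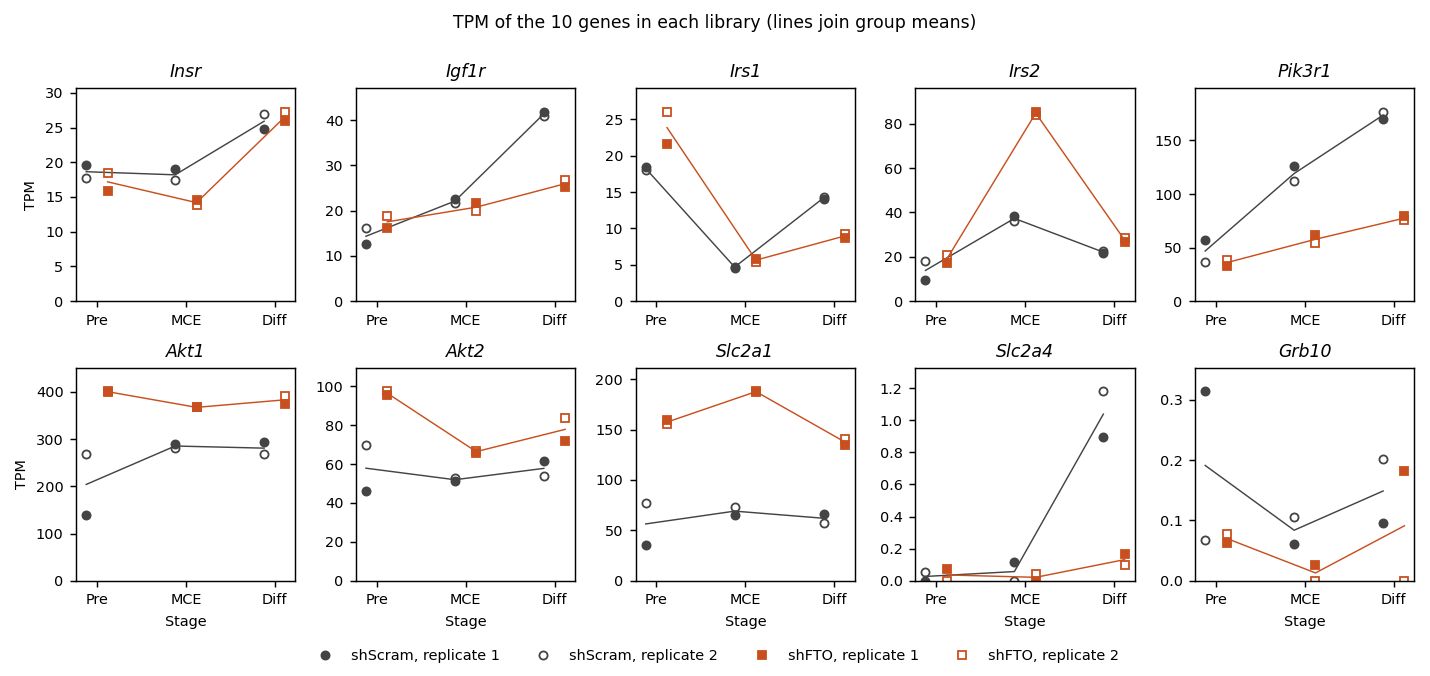
TPM of the 10 genes (vertical axes, each from 0) at the stages Pre, MCE and Diff, with filled and open symbols for replicates 1 and 2, circles for shScram, squares for shFTO and lines through the group means. Slc2a1 and Akt1 of every shFTO library lie above those of every shScram library, Pik3r1 is lower in shFTO cells at MCE and Diff, and Slc2a4 reaches 0.896 and 1.18 TPM in shScram cells at Diff alone.

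The receptors come first in the chain. Insr (ENSMUSG00000005534), the insulin receptor, is annotated on the minus strand of GRCm38 at chr8:3122061-3279617. Its shScram libraries held 19.6 and 17.7 TPM at Pre, 19.0 and 17.4 TPM at MCE, and 24.8 and 27.0 TPM at Diff. The shFTO libraries held 15.9 and 18.4 TPM at Pre, 14.6 and 13.8 TPM at MCE, and 26.0 and 27.3 TPM at Diff. The lines overlapped at Pre and Diff, and at MCE both shFTO values were below both shScram values. No knockdown difference of Insr passed the limma test, which was run on log2(TPM + 1), a scale that shrinks changes of low values. At MCE the difference was -0.34 ± 0.13 (SE; adjusted p = 0.110), at Pre -0.11 (95% interval -0.40 to 0.18) and at Diff 0.04 (-0.25 to 0.33). Under 6 of 23 alternatives the MCE difference passed. Its adjusted p was 0.0166 when only the MCE and Diff libraries were fitted and 0.0252 without both doubted libraries, and after correction for GC content the value was -0.40 (adjusted p = 0.00692). Insr rose from MCE to Diff in both lines, by 0.49 ± 0.13 in shScram (adjusted p = 0.0240) and by 0.86 ± 0.13 in shFTO cells (adjusted p = 0.00168). The shScram rise missed the threshold without any 1 of its 4 libraries, with values from 0.43 to 0.55 and adjusted p from 0.0630 to 0.150. It also did so under median-ratio scaling (0.30, adjusted p = 0.150) and quantile normalization (0.28, adjusted p = 0.240). Insr overlaps Gm16180 and Vmn2r-ps88 on the opposite strand, and whether the counting used strand is not given in the sources used here.

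Igf1r (ENSMUSG00000005533; plus strand, chr7:67952827-68233668) encodes the receptor of insulin-like growth factor 1, which also binds insulin at high concentration. It stood at 12.6 and 16.1 TPM at Pre, 22.5 and 21.7 TPM at MCE, and 41.8 and 40.9 TPM at Diff in shScram cells. The shFTO levels were 16.2 and 18.8 TPM, 21.6 and 20.0 TPM, and 25.2 and 26.7 TPM. At Diff the lines were far apart, with both shFTO values below both shScram values. In shScram cells Igf1r rose from Pre to MCE by 0.60 ± 0.14 (adjusted p = 0.0108) and from MCE to Diff by 0.87 ± 0.14 (adjusted p = 0.00301). The corresponding differences in shFTO cells were 0.24 (adjusted p = 0.265) and 0.31 (adjusted p = 0.148). The knockdown difference at Diff was -0.65 ± 0.14 (adjusted p = 0.0120), while it was 0.28 at Pre (adjusted p = 0.162) and -0.09 at MCE (adjusted p = 0.752). Leaving out any 1 of the 4 Diff libraries ended the call at Diff, with values from -0.69 to -0.62 and adjusted p from 0.0603 to 0.0830. At Pre the value was 0.45 (adjusted p = 0.00646) without replicate 2 of shScram. The shScram rise to MCE also missed the threshold without either shScram MCE library, at adjusted p of 0.0581 and 0.0512. The ratio of Insr to Igf1r within a library was 0.593 and 0.660 in shScram and 1.03 and 1.02 in shFTO cells at Diff. At Pre the ratio was 1.56 and 1.10 in shScram and 0.983 and 0.979 in shFTO cells, so the order of the lines was the opposite there.

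The receptor substrates Irs1 and Irs2 are the docking proteins through which the receptor reaches phosphoinositide 3-kinase, and they moved in opposite directions on induction. Irs1 (ENSMUSG00000055980) lies at chr1:82233101-82291416 and Irs2 (ENSMUSG00000038894) at chr8:10984681-11008458, both on the minus strand. The 250 bases before the RefSeq start of each are shown because these are 2 genes of 1 family whose levels changed in opposite directions from Pre to MCE. The windows are chr1:82291440-82291689 and chr8:11008930-11009179 of GRCm38.p6, minus strand, written 5′ to 3′. Capitals mark 3 motifs searched on both strands: the E-box CACGTG, the core of the cAMP response element TGACG, which reads as CGTCA on the other strand, and the GC box GGGCGG, which reads as CCGCCC there.
Irs1: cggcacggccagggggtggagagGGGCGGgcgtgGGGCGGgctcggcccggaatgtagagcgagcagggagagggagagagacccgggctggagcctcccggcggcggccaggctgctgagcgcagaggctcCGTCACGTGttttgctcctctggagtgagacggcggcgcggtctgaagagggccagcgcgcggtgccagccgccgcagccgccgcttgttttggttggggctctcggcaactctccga
Irs2: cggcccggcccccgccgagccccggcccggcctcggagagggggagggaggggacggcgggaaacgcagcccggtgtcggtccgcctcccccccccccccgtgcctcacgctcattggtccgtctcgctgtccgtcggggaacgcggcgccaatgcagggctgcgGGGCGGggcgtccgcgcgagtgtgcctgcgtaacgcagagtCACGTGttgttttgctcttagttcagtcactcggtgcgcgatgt
Both windows held 1 E-box, which 6.02% of the 32851 mouse promoter windows of this length hold. In Irs1 the E-box shared bases with a cAMP response element core, a motif found in 17.8% of windows and not in that of Irs2. The GC box, present in 32.7% of windows, occurred 2 times in Irs1 and 1 time in Irs2. Promoter windows matched 8 of the 10 genes, all but Insr and Slc2a4, with 14 start sites in all, and no other window of these genes held the E-box. These matches describe letters and not bound sites.

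Irs1 was at 18.4 and 18.1 TPM at Pre, 4.63 and 4.75 TPM at MCE, and 14.1 and 14.3 TPM at Diff in shScram cells. The shFTO libraries held 21.7 and 26.0 TPM, 5.85 and 5.43 TPM, and 8.67 and 9.28 TPM. Both lines thus had their low point at MCE, without overlap between the stages, and at Diff both shFTO values were below both shScram values. From Pre to MCE Irs1 fell by 1.76 ± 0.13 in shScram cells (adjusted p = 2.4e-05). It fell by 1.90 ± 0.13 in shFTO cells (adjusted p = 1.72e-05). From MCE to Diff it rose by 1.42 ± 0.13 in shScram (adjusted p = 0.000223) and by 0.59 ± 0.13 in shFTO cells (adjusted p = 0.0116). The shFTO rise missed the threshold without any 1 of its 4 libraries, with adjusted p from 0.0516 to 0.0905, and under quantile normalization (0.28, adjusted p = 0.203). The knockdown difference was 0.36 at Pre (adjusted p = 0.0676), 0.22 at MCE (adjusted p = 0.314) and -0.61 ± 0.13 at Diff (adjusted p = 0.0117). Without any 1 of the 4 Diff libraries the call at Diff was lost, with values between -0.65 and -0.56 and adjusted p from 0.0569 to 0.0848. Irs1 overlaps Gm9747 on the opposite strand.

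Irs2 held 9.54 and 18.2 TPM at Pre, 38.6 and 36.1 TPM at MCE, and 21.7 and 22.5 TPM at Diff in shScram cells. In shFTO cells it held 17.1 and 20.8 TPM, 85.4 and 84.1 TPM, and 26.6 and 28.4 TPM. Both lines peaked at MCE, and there the shFTO libraries were far above the shScram libraries. Irs2 rose from Pre to MCE by 1.43 ± 0.24 in shScram (adjusted p = 0.00210) and by 2.11 ± 0.24 in shFTO cells (adjusted p = 0.000268). From MCE to Diff it fell by 1.59 ± 0.24 in shFTO cells (adjusted p = 0.00182), and the difference in shScram cells was -0.73 (adjusted p = 0.0550). The knockdown difference at MCE was 1.16 ± 0.24 (adjusted p = 0.0105), against 0.48 at Pre (adjusted p = 0.150) and 0.30 at Diff (adjusted p = 0.425). Leaving out any 1 of the 4 MCE libraries ended the call, with values between 1.12 and 1.21 and adjusted p from 0.0545 to 0.0730. The value at Pre was 0.05 without replicate 1 of shScram, 0.92 (adjusted p = 8.03e-05) without replicate 2, and -0.19 (adjusted p = 0.220) after correction for GC content. Irs2 overlaps 9530052E02Rik on the opposite strand.

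The ratio of Irs1 to Irs2 within a library compares the family members on the length-corrected scale. In shScram cells it was 1.93 and 0.991 at Pre, 0.120 and 0.132 at MCE, and 0.649 and 0.635 at Diff. In shFTO cells it was 1.27 and 1.25, 0.0685 and 0.0646, and 0.326 and 0.326. The shFTO values were below the shScram values at MCE and at Diff, and lay between the 2 shScram values at Pre. Averaged over the stages, the log2 ratio differed between the lines by -0.68 in an exact permutation test within stages (two-sided, p = 0.0278, adjusted p = 0.0602 over 13 values). In the same exact permutation test it was -0.52 (adjusted p = 0.120) without replicate 1 of shScram at Pre and -0.84 (adjusted p = 0.0201) without replicate 2. Without both doubted libraries it was -0.51 (exact permutation, adjusted p = 0.201), and after GC correction -0.39 (exact permutation, adjusted p = 0.224).

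**Figure D2:**
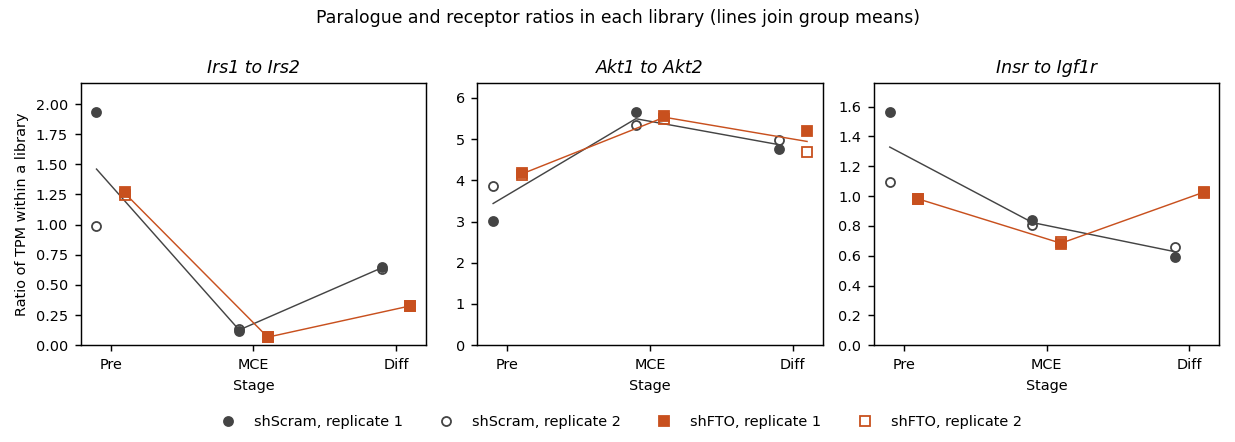
Ratio of TPM within each library (vertical axes, each from 0) for Irs1 to Irs2, Akt1 to Akt2 and Insr to Igf1r at each stage, with filled and open symbols for replicates 1 and 2, circles for shScram, squares for shFTO and lines through the group means. The Irs1 to Irs2 ratio is lowest at MCE in both lines and lower in shFTO cells at MCE and Diff, and the Insr to Igf1r ratio at Diff is near 1 in shFTO and near 0.63 in shScram cells.

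Pik3r1 (ENSMUSG00000041417; minus strand, chr13:101680563-101768217) encodes the p85 alpha, p55 alpha and p50 alpha regulatory subunits of phosphoinositide 3-kinase from different starts. The window before its distal RefSeq start, chr13:101768218-101768467 on the minus strand, is shown because Pik3r1 was lower in shFTO cells at MCE and Diff, and its 4 GC boxes are in capitals.
Pik3r1: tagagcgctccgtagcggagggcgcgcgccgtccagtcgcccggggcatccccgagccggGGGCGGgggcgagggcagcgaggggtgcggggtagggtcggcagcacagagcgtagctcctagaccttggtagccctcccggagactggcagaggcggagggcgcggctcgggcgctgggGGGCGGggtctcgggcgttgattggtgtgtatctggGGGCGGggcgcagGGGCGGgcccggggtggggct
The window before the other start, chr13:101692631-101692880, held no GC box and 1 cAMP response element core. The gene totals used here do not separate transcripts from these starts.

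In shScram cells Pik3r1 was at 56.9 and 36.8 TPM at Pre, 126.1 and 112.1 TPM at MCE, and 170.4 and 176.7 TPM at Diff. With shFTO it was at 33.3 and 38.5 TPM, 61.6 and 53.9 TPM, and 79.5 and 75.6 TPM. The lines overlapped at Pre, whereas at MCE and Diff all shFTO values were below all shScram values. Pik3r1 rose from Pre to MCE by 1.36 ± 0.19 in shScram (adjusted p = 0.000811) and by 0.67 ± 0.19 in shFTO cells (adjusted p = 0.0281). The shFTO rise missed the threshold without any 1 of the 4 shFTO libraries at Pre and MCE, with adjusted p from 0.0701 to 0.165, and with no filter on low values (adjusted p = 0.0616). From MCE to Diff the differences were 0.54 in shScram (adjusted p = 0.0688) and 0.42 in shFTO cells (adjusted p = 0.140). The knockdown difference was -1.03 ± 0.19 at MCE (adjusted p = 0.00621) and -1.15 ± 0.19 at Diff (adjusted p = 0.00308), against -0.35 at Pre (adjusted p = 0.189). At Pre the value was -0.04 without replicate 1 of shScram and -0.65 (adjusted p = 0.000643) without replicate 2. At MCE the adjusted p was 0.0547 without replicate 1 of shScram and 0.0626 without replicate 2 of shFTO, with differences of -0.95 and -0.94. The decrease at Diff passed the threshold with each library left out in turn, with values from -1.19 to -1.12 and adjusted p of at most 0.0303. Pik3r1 overlaps Gm36638 on the same strand, so its total is uncertain to that extent.

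Akt1 (ENSMUSG00000001729; minus strand, chr12:112653821-112674884) and Akt2 (ENSMUSG00000004056; plus strand, chr7:27591552-27640826) encode kinases that carry the signal onward, Akt2 being the form most tied to glucose transport in fat and muscle. Akt1 held 138.9 and 269.1 TPM at Pre, 288.9 and 281.9 TPM at MCE, and 293.5 and 268.3 TPM at Diff in shScram cells. The corresponding shFTO values were 399.8 and 401.4 TPM, 367.1 and 367.4 TPM, and 374.6 and 392.2 TPM. All shFTO libraries were above all shScram libraries. Akt2 held 46.0 and 69.7 TPM at Pre, 51.2 and 52.7 TPM at MCE, and 61.6 and 54.0 TPM at Diff in shScram cells. The shFTO libraries had 95.4 and 97.4 TPM, 65.9 and 66.9 TPM, and 72.0 and 83.7 TPM. At each stage both shFTO values were above both shScram values.

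At Pre the knockdown difference was 1.05 ± 0.25 for Akt1 (adjusted p = 0.0172) and 0.76 ± 0.18 for Akt2 (adjusted p = 0.0183). At MCE and Diff the values were 0.36 (adjusted p = 0.384) and 0.45 (adjusted p = 0.242) for Akt1. For Akt2 they were 0.35 (adjusted p = 0.245) and 0.42 (adjusted p = 0.139). The spread shared by the groups includes the shScram pair at Pre, and these later differences passed the threshold when only the MCE and Diff libraries were fitted, with adjusted p of 0.00229 and 0.000655 for Akt1 and 0.0148 and 0.00543 for Akt2. Without replicate 1 of shScram at Pre the Pre differences were 0.57 for Akt1 and 0.46 for Akt2 (adjusted p = 0.000597 and 0.0102), and without replicate 2 they were 1.52 and 1.05. Without replicate 1 or 2 of shFTO at Pre the adjusted p was 0.0911 and 0.0792 for Akt1 and 0.0909 and 0.0839 for Akt2. Akt1 has the highest transcript GC content of the 10 genes, 59.7%, and Akt2 has 55.2%. After correction for GC content the Akt1 differences were 0.11, 0.16 and 0.19 at Pre, MCE and Diff (adjusted p = 0.475, 0.320 and 0.224). Those of Akt2 were then 0.21, 0.25 and 0.30 (adjusted p = 0.149, 0.105 and 0.0509). No stage change of Akt1 or Akt2 passed the test in either line, and the ratio of Akt1 to Akt2 ranged from 3.02 to 5.65 over the 12 libraries. Akt1 overlaps Mir6939 on the same strand.

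Slc2a1 (ENSMUSG00000028645; plus strand, chr4:119108711-119137983) encodes GLUT1, the transporter of basal glucose uptake. Part of its promoter, chr4:119108495-119108710 on the plus strand, is shown because Slc2a1 had the largest knockdown difference of the tested genes at Pre and MCE. The run of 216 bases leaves out the 34 next to the RefSeq start. The window of 250 bases held 2 GC boxes and neither of the other motifs, and 1 of these is within the run, in capitals.
Slc2a1: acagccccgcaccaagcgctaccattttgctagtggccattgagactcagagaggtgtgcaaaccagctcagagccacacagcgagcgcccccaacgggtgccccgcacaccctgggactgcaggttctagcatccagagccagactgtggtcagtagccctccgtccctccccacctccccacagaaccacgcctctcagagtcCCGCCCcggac
The shScram libraries held 35.7 and 77.1 TPM at Pre, 65.4 and 72.8 TPM at MCE, and 66.6 and 57.4 TPM at Diff. The shFTO libraries held 159.7 and 155.3 TPM, 187.4 and 188.1 TPM, and 134.7 and 140.7 TPM. The lowest shFTO value was above the highest shScram value over all stages, and no stage change of Slc2a1 passed the test in either line.

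The knockdown difference of Slc2a1 was 1.57 ± 0.28 at Pre (adjusted p = 0.00622), 1.43 ± 0.28 at MCE (adjusted p = 0.00855) and 1.14 ± 0.28 at Diff (adjusted p = 0.0206). Without replicate 1 of shScram at Pre the Pre value was 1.02 (adjusted p = 8.93e-05), and without replicate 2 it was 2.11. After correction for GC content the values were 1.12, 1.34 and 1.05, all past the threshold. Without replicate 1 of shScram at Diff the value at Diff was 1.25 (adjusted p = 0.0708). It also missed the threshold without replicate 2 of shScram (1.04, adjusted p = 0.124), replicate 1 of shFTO (1.17, adjusted p = 0.0888) or replicate 2 of shFTO (1.11, adjusted p = 0.111) at Diff, and with no filter on low values (adjusted p = 0.0516). At MCE the adjusted p was 0.0630 without replicate 1 of shScram, 0.0579 without replicate 1 of shFTO and 0.0594 without replicate 2 of shFTO. Slc2a1 overlaps Mir1957a on the same strand and Gm12867 and Gm12868 on the other.

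Slc2a4 (ENSMUSG00000018566; minus strand, chr11:69942539-69948188) encodes GLUT4, the insulin-responsive transporter of fat and muscle. In shScram cells it was listed at 0 and 0.0533 TPM at Pre, at 0.115 and 0 TPM at MCE, and at 0.896 and 1.18 TPM at Diff. In shFTO cells it was listed at 0.0723 and 0 TPM, at 0 and 0.0426 TPM, and at 0.164 and 0.0996 TPM. Only the shScram pair at Diff stood above the rest, and the shFTO mean at Diff was 12.7% of it. The sum of the adipocyte markers differed between the same groups in the same direction, and its part in the difference was not tested. Slc2a4 was too low for the limma fit, since 1 library reached 1 TPM, and a single stage of 2 against 2 libraries cannot give an exact permutation p below 0.333. Slc2a1 exceeded Slc2a4 in every library. The ratio was 74.3 and 48.7 in shScram cells and 823 and 1412 in shFTO cells at Diff. At Pre and MCE the ratio rests on values of Slc2a4 at or near 0.

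Grb10 (ENSMUSG00000020176; minus strand, chr11:11930508-12038683) encodes an adaptor that binds the insulin and IGF1 receptors and restrains their signal. It was at 0.314 and 0.0681 TPM at Pre, 0.0616 and 0.106 TPM at MCE, and 0.0949 and 0.203 TPM at Diff in shScram cells. In shFTO cells it was listed at 0.0622 and 0.0782 TPM, 0.0259 and 0 TPM, and 0.182 and 0 TPM. No library reached 1 TPM, and the lines overlapped at Pre and Diff.

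Counted over the 8 tested genes, the knockdown comparison asks which steps of the pathway differ between the lines at each stage. At Pre 3 genes were higher in shFTO cells (Slc2a1, Akt1 and Akt2) and none was lower, against 28.2% of all tested genes called in either direction (15.9% higher and 12.3% lower). At MCE 2 were higher (Slc2a1 and Irs2) and 1 was lower (Pik3r1), with 17.8% of all tested genes called (10.5% higher and 7.26% lower). At Diff 1 was higher (Slc2a1) and 3 were lower (Pik3r1, Igf1r and Irs1), with 21.2% called (11.9% higher and 9.31% lower). The median difference of the 8 genes was 0.42, 0.29 and 0.17 at the 3 stages, beside 0.08, 0.05 and 0.03 over all tested genes. The stages were not independent of each other in the fit, which shares 1 estimate of the spread. When only the MCE and Diff libraries were fitted, 6 of 8 passed at MCE and 7 of 8 at Diff, with 41.2% and 45.9% of all genes called. When both doubted libraries were left out, 3 passed at Pre, 6 at MCE and 6 at Diff, with 30.0%, 41.7% and 40.1% called. After GC correction, 1 of 8 passed at Pre, with 32.2% called, and with the Pre libraries alone none of the 8 and none of all genes did. Leaving out replicate 2 of shScram at Pre gave 6 calls at Pre (62.8% of all genes), and leaving out replicate 1 or 2 of shFTO there gave 1 (7.32% and 9.88%). At MCE there were 0 calls without replicate 1 of shScram (8.97%) or replicate 2 of shFTO (7.61%), 1 without replicate 1 of shFTO (7.95%), 2 without replicate 2 of shScram (8.94%), and 6 without either shScram library at Pre (41.0%). At Diff there was 1 call without any 1 of the 4 Diff libraries (10.3% to 11.2%), and there were 7 without replicate 1 or 2 of shScram at Pre (45.7% and 45.6%).

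**Figure D3:**
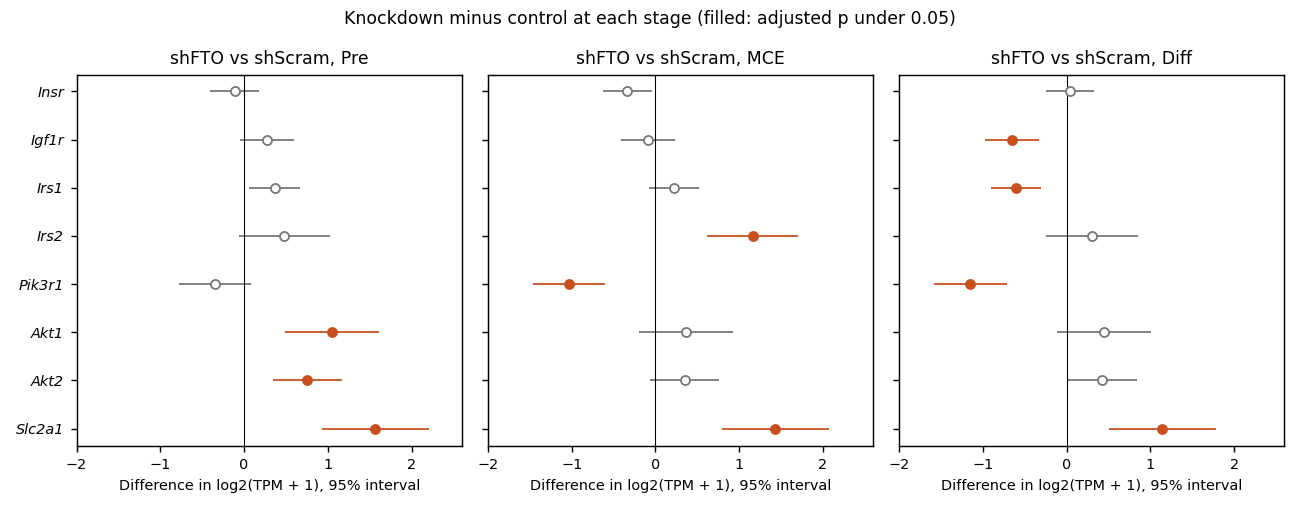
Difference between shFTO and shScram cells in log2(TPM + 1) (horizontal axis) for the 8 tested genes at each stage, with 95% intervals from limma and filled symbols where the adjusted p is under 0.05. Slc2a1 lies to the right of 0 at all stages, Pik3r1 to the left at MCE and Diff, and Igf1r and Irs1 to the left at Diff.

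Averaged over the stages, the lines differed in 5 of the 10 genes by the exact permutation test within stages. Other genes were not put through this test, so no share of all genes stands beside that count. The difference was 1.38 for Slc2a1, 0.62 for Akt1 and 0.51 for Akt2, each higher in shFTO cells at 3 of 3 stages (two-sided exact permutation p = 0.00926, the smallest that 216 arrangements allow, adjusted p = 0.0401 over 13 values). It was 0.65 for Irs2 and -0.84 for Pik3r1 (exact permutation p = 0.0185, adjusted p = 0.0481). For Irs1 the average was -0.01 (exact permutation p = 0.981), since its sign differed between the stages. The averages of Insr, Igf1r, Slc2a4 and Grb10 were -0.14, -0.15, -0.29 and -0.11, with exact permutation p between 0.111 and 0.25. After GC correction none of the 10 passed the adjusted threshold in the exact permutation test. An unadjusted p under 0.05 was then reached by 4: Slc2a1 (1.17), Akt2 (0.25), Akt1 (0.15) and Pik3r1 (-0.77). For Irs2 the average was 0.33 (exact permutation p = 0.204). With any 1 library left out, the average ranged from 1.20 to 1.56 for Slc2a1, 0.46 to 0.78 for Akt1 and 0.41 to 0.61 for Akt2. It ranged from 0.50 to 0.79 for Irs2 and from -0.95 to -0.74 for Pik3r1. Each smaller size came without replicate 1 of shScram at Pre and each larger size without replicate 2. Each omission left 108 arrangements in place of 216. Not every call was then kept, as counted further below, and the cause was not tested.

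The stage comparisons ask how the pathway changed during differentiation in each line. From Pre to MCE, 3 of 8 genes rose (Irs2, Pik3r1 and Igf1r) and 1 fell (Irs1) in shScram cells, with 39.1% of all tested genes called (12.2% higher and 26.9% lower). In shFTO cells 2 rose (Irs2 and Pik3r1) and 1 fell (Irs1), with 28.7% called (8.80% higher and 19.9% lower). From MCE to Diff, 3 rose in shScram cells (Irs1, Igf1r and Insr), with 25.2% called (20.0% higher and 5.22% lower). In shFTO cells 2 rose (Insr and Irs1) and 1 fell (Irs2), with 26.7% called (20.2% higher and 6.48% lower). The median over all tested genes was -0.17 and 0.23 in shScram and -0.18 and 0.17 in shFTO cells for the successive steps. Without either shScram library at Pre, 5 genes passed from MCE to Diff in shScram cells, with 52.0% of all genes called. In shFTO cells 5 passed from Pre to MCE, with 51.1% called, and 6 from MCE to Diff, with 50.9% and 51.0% called.

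Whether the knockdown difference changed between stages was tested by interaction contrasts. Between Pre and MCE none of 8 genes passed by limma, with 5.11% of all genes called and 1 gene at an unadjusted p under 0.05 (Pik3r1, -0.69, adjusted p = 0.183). Between MCE and Diff none passed either, with 2.49% called and 3 genes at an unadjusted p under 0.05. These were Irs1 (-0.83, adjusted p = 0.0590), Irs2 (-0.86, adjusted p = 0.265) and Igf1r (-0.57, adjusted p = 0.215). Without replicate 1 or 2 of shScram at Pre, 2 and 4 genes passed between Pre and MCE (14.1% and 52.5% of all genes), and 3 in either case between MCE and Diff (17.1%). Between Pre and Diff, a contrast added after the values were seen, 2 of 8 passed, with 7.67% called. The knockdown difference was lower at Diff than at Pre by -0.97 ± 0.19 for Irs1 (adjusted p = 0.0166) and by -0.93 ± 0.20 for Igf1r (adjusted p = 0.0260). Without replicate 1 of shScram at Pre these were -0.99 (adjusted p = 0.00545) and -0.76 (adjusted p = 0.00633). Without replicate 1 of shScram at Diff they were -0.98 (adjusted p = 0.0696) and -0.92 (adjusted p = 0.103). Each of the other 3 Diff libraries and replicate 2 of shFTO at Pre also ended both calls when left out, with adjusted p from 0.0610 to 0.105. For Igf1r replicate 1 of shFTO at Pre (-1.03, adjusted p = 0.0573) and either shFTO library at MCE (adjusted p = 0.0556 and 0.0553) did so too. Without replicate 2 of shScram at Pre, 7 of 8 genes passed, with 51.0% of all genes called.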

How the data were processed

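RNA-seq libraries of 12 samples were used, the 2 replicates of 6 groups assigned by title. The labels do not say whether replicates are separate cultures, so p-values measure only the spread between these libraries. After trimming by Trim Galore 0.6.5 and alignment by HISAT2 2.1.0 to GRCm38, the authors quantified Ensembl genes with StringTie 2.1.4 and deposited TPM per gene. TPM sets every library to one total, so depth and counting error are unknown. The DESeq2 1.30.1 test of the authors needs counts and was not repeated.

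From TPM, log2(TPM + 1) was computed. The 15968 of 55487 genes with at least 1 TPM in at least 2 libraries entered a limma 3.58.1 fit under R 4.3.3 (a mean per group, eBayes with trend, 6 residual degrees of freedom, two-sided, Benjamini-Hochberg adjustment over all tested genes, threshold 0.05). Single values averaged over stages were tested by exact permutation of the lines within stages, adjusted over 10 genes and 3 ratios. The ratio of Slc2a1 to Slc2a4 could not be tested without a pseudocount because Slc2a4 is at 0 in 4 libraries. It was tested only in the alternative with a pseudocount of 0.1. The limma fit was checked on simulated data with independent errors, and the exact permutation test was not. Python 3.11.15, numpy 2.4.6, pandas 2.3.3 and scipy 1.17.1 were used elsewhere, and figures were drawn with matplotlib 3.10.9.

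The genes, the lists and the markers were chosen with earlier results of these data known. Beside the 10 genes, those named are the 2 highest and 2 lowest listed genes past the threshold with a mean of at least 5 TPM in each knockdown comparison and each shScram stage change, the 3 genes most alike to Insr, Slc2a1 and Slc2a4, and Fto. Another gene that the rule names is not reported here. Ins1 and Ins2 are outside this rule and were named after their values were seen. Gene coordinates are from GENCODE M21 on GRCm38, promoter sequences from RefSeq on GRCm38.p6. Alternatives were another pseudocount, 2 filters, median-ratio and quantile scaling, only the libraries compared, no trend, a replicate block and each library left out. GC correction, 10 libraries without the doubted ones, the MCE and Diff libraries alone, and the interaction of Diff with Pre were added after seeing the data. Rhein-treated cells and m6A immunoprecipitates were not analysed here.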

Additional observations from a re-analysis of the deposited data

Results flagged for a closer look

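For 2 genes the difference between the lines had opposite signs at different stages in every library. For Irs1 every shFTO library was above every shScram library at Pre and MCE and below at Diff. The difference between the effects was -0.83 from MCE to Diff (adjusted p = 0.0590) and -0.97 from Pre to Diff (adjusted p = 0.0166). For Igf1r every shFTO library was above every shScram library at Pre and below at MCE and Diff, with a difference between the effects of -0.37 from Pre to MCE (adjusted p = 0.305) and -0.93 from Pre to Diff (adjusted p = 0.0260). At MCE the lines nearly met for Igf1r, at 21.6 TPM in the higher shFTO and 21.7 TPM in the lower shScram library. The knockdown difference there was -0.09 by limma (adjusted p = 0.752). The replicates at Pre are uneven, and Igf1r in shScram cells stood at 12.6 TPM in the library that stands apart and at 16.1 TPM in the other, against 16.2 and 18.8 TPM in shFTO cells.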

How the results depend on the processing

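The 25 single-gene differences that passed were recomputed 563 times under the alternatives: 496 recomputations passed in the same direction, 67 missed the threshold and 0 changed sign. Differences that had not passed changed sign for Insr at Diff (-0.014 under quantile normalization, -0.021 to 0.097 with 1 library left out, the lowest being without replicate 1 of shScram at Diff, and -0.021 without both doubted libraries) and for Irs2 at Pre (-0.19 with GC correction). The cause was not tested. Of 8 genes, the knockdown called 0 at Pre, 6 at MCE and 7 at Diff when only the libraries of the comparison were fitted (0%, 37.0% and 41.4% of all genes), and 1 at Pre with GC correction (32.2%). With the MCE and Diff libraries only it called 6 and 7 (41.2% and 45.9%), and without both doubted libraries 6 at MCE (41.7%). With only their own libraries, stage changes in shScram cells came to 1 (MCE vs Pre, 3.16% of all genes) and 5 (Diff vs MCE, 40.4%). With the MCE and Diff libraries they came to 5 (Diff vs MCE, 52.3%). In shFTO cells they came to 5 (MCE vs Pre, 50.1%) and 6 (Diff vs MCE, 54.4%) with only their own libraries. They came to 6 (Diff vs MCE, 51.1%) with the MCE and Diff libraries and to 5 (MCE vs Pre, 38.4%) with GC correction. The interaction of MCE with Pre gave 2 calls with GC correction (10.3%). That of Diff with MCE gave 1 with no filter on low values (1.84%) and 1 with a filter at 5 TPM (2.81%). It gave 3 with only its own libraries or the MCE and Diff libraries (16.9% in both) and with GC correction (7.59%). That of Diff with Pre gave 0 with only its own libraries (2.59%). Averaged over the stages, 0 of the 5 differences passed with GC correction. With a pseudocount of 0.1, where that of Slc2a1 to Slc2a4 was also tested, 1 ratio passed. Without both doubted libraries the averages were 1.23 for Slc2a1, 0.48 for Akt1, 0.44 for Akt2, 0.50 for Irs2 and -0.75 for Pik3r1. Only 54 arrangements were then left, so a gene alone at the smallest possible p could not pass after adjustment.

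Leaving out 1 library at a time gave 1 to 6 calls at Pre, 0 to 6 at MCE and 1 to 7 at Diff for the knockdown. For stage changes it gave 3 to 6 and 2 to 5 in shScram and 2 to 5 and 2 to 6 in shFTO cells, and for the interactions 0 to 4 (MCE vs Pre), 0 to 3 (Diff vs MCE) and 0 to 7 (Diff vs Pre). It gave 0 to 5 differences and 0 to 1 ratios averaged over the stages. An arm left with 1 library was assumed to vary like the other groups. The higher counts came when a shScram Pre library was left out, which also raised the share of all genes called for the knockdown at MCE from 17.8% to 41.0%.

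Of 15 pairs of groups, 2 had deviations between replicates correlated above 0.1 (range -0.29 to 0.17). With 2 libraries per group, this cannot tell whether libraries of the same replicate number shared a source. With the replicate number as a block, 3, 3 and 4 genes passed for the knockdown at Pre, MCE and Diff, as without it, and no count over the 8 genes moved. The alternatives include 3 chosen after seeing the data. TPM keeps no depth, so differences of Slc2a4 and Grb10 near 0 cannot be weighed against counting error.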

Other observations

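Around the 10 genes, 54 other genes of the insulin pathway were listed, of which 44 were tested. In shFTO cells 13 were higher and 5 lower at Pre, 9 and 3 at MCE, and 11 and 4 at Diff. Of all tested genes, 15.9% were higher and 12.3% lower at Pre, 10.5% and 7.26% at MCE, and 11.9% and 9.31% at Diff. The list had median differences of 0.39, 0.23 and 0.12 beside 0.08, 0.05 and 0.03 over all genes. These counts and medians, and those of the next list, come from the main fit alone. That fit includes replicate 1 of shScram at Pre, which stood apart, and they were not recomputed without it or after GC correction. Pde3b, the phosphodiesterase through which insulin restrains lipolysis, was at 1.88 and 1.31 TPM at Pre in shScram cells, where shFTO cells held 9.23 and 11.6 TPM. At Diff the shScram libraries held 0.735 and 1.09 TPM and the shFTO libraries 44.5 and 46.8 TPM, without overlap at any stage. Its differences were 2.14 (adjusted p = 0.000194), 4.27 (adjusted p = 3.21e-06) and 4.61 (adjusted p = 1.23e-06). Grb14, an adaptor that inhibits the insulin receptor, was at 6.29 and 3.93 TPM at MCE in shScram cells, where shFTO cells held 35.5 and 29.2 TPM (2.47, adjusted p = 6.23e-05). Igf2, a growth factor ligand of Igf1r, was at 1.36 and 0.0251 TPM at Diff in shScram cells, where shFTO cells held 37.5 and 39.4 TPM (4.66, adjusted p = 0.000405). Trib3, an inhibitor of Akt, was higher at Pre by 1.78 (adjusted p = 0.0337), where its shScram libraries held 28.1 and 124.8 TPM. The value was 0.72 without replicate 1 of shScram at Pre (adjusted p = 0.000342), without replicate 2 it was 2.84, and the adjusted p was 0.0547 to 0.148 without any 1 of the other 10 libraries. Prkci, an atypical protein kinase C, was lower at Diff by -0.62 (adjusted p = 0.0169), a call lost without replicate 2 of shScram or either shFTO library at Diff (adjusted p = 0.0893 to 0.125). From Pre to MCE in shScram cells Socs1, a feedback inhibitor, rose by 2.65 (adjusted p = 0.0153), with shScram values of 0.313 and 8.47 TPM at Pre. Its rise was 1.23 without replicate 1 of shScram at Pre (adjusted p = 1.83e-05), without replicate 2 it was 4.08, and without replicate 1 or 2 of shScram at MCE the adjusted p was 0.0659 and 0.0743. Grb14 and Rhoq, a small GTPase linked to GLUT4, fell by 2.00 (adjusted p = 8.37e-05) and 1.87 (adjusted p = 1.03e-05). Grb14 rose again by 1.13 from MCE to Diff (adjusted p = 0.00320). Ins1 and Ins2 were listed at 0 in every library.

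Of 27 listed genes of glucose uptake and GLUT4 traffic, 21 were tested. In shFTO cells 2 were higher and 3 lower at Pre, 3 and 3 at MCE, and 2 and 2 at Diff, with median differences of 0.03, 0.02 and 0.06 beside the shares and medians of all genes given above. Tbc1d4, the Akt substrate that holds GLUT4 inside the cell, was at 21.5 and 19.4 TPM at MCE in shScram cells, where shFTO cells held 9.47 and 8.19 TPM (-1.13, adjusted p = 0.00719). This call was lost without replicate 1 of shScram or replicate 2 of shFTO at MCE (adjusted p = 0.0571 and 0.0672). It was also lower at Pre (-1.05, adjusted p = 0.0103, and 0.0818 without replicate 1 of shFTO at Pre), and the difference at Diff was -0.66 (adjusted p = 0.0600). Stxbp3, a regulator of GLUT4 vesicle fusion, was lower at Pre by -1.11 (adjusted p = 0.0277), where its shScram libraries held 130.9 and 59.0 TPM. This was -0.55 without replicate 1 of shScram at Pre (adjusted p = 0.0142), without replicate 2 -1.68, and without replicate 1 or 2 of shFTO at Pre the adjusted p was 0.148 and 0.0797. Slc2a10, which encodes GLUT10, rose by 1.10 from MCE to Diff in shScram cells (adjusted p = 0.0156), and the call was lost without any 1 of the 4 shScram libraries at MCE and Diff (adjusted p = 0.0648 to 0.0852).

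The tested genes whose log2(TPM + 1) over the 12 libraries was most like a given gene were named by Pearson's r among 10800 genes with a mean of at least 5 TPM. For Slc2a1 these were Tgfb1 (r = 0.990), Unc50 (0.986) and Ssr2 (0.985). For Slc2a4 they were Ephx2 (0.974), Sult1a1 (0.967) and Thrsp (0.962), and for Insr they were Birc3 (0.966), Vps13c (0.965) and Ifi205 (0.964). All 12 points are the same libraries, which fall into 6 groups and share their composition, so these values are descriptions. For Slc2a4 most of the variation lies between the shScram pair at Diff and the other libraries.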
